A study of Mus musculus with 2 samples.

Results

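The proteasome is the protease that degrades most short-lived and misfolded proteins of a cell, and the genes described here encode its constitutive form in the mouse ovary. They were taken by symbol from a table of counts per gene for 2 ovary libraries: rows named Psma, Psmb, Psmc or Psmd with a number, without the immunoproteasome genes Psmb8, Psmb9 and Psmb10, plus Psme3, Psme4, Psmf1, Psmg1 to Psmg4, Pomp, Adrm1 and Nfe2l1. This gave 47 of the 24421 rows. Of the 47, 32 encode core subunits of the 26S proteasome and 1, Psmc3ip, matches by spelling only, since its product is a partner of meiotic recombinases and no proteasome subunit. The 19S subunit gene Shfm1, also known as Sem1, has a symbol outside this naming and is not among the 47.

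One library came from ovaries of wild-type (WT) mice and the other from H19KO mice, whose sample description gives the allele as H19(Δ3). Both were labelled strain C57BL/6J and 8 weeks old, with no special treatment. H19 is an imprinted long noncoding RNA, and the study asked which ovarian genes it regulates. The labels do not say how many animals gave each RNA sample. With 1 library per genotype there was no replicate check and no test. Each difference below describes these 2 libraries, and each interval in parentheses is the exact conditional binomial 95% interval of the ratio, which covers counting error only.

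The constitutive proteasome has a barrel-shaped 20S core, built from rings of alpha and beta subunits, and a 19S cap that binds ubiquitin-tagged proteins, unfolds them with a ring of ATPases and feeds them into the barrel. Subunits are needed in fixed proportion, dedicated chaperones assemble the core and the cap, and the transcription factor NFE2L1 is known to raise many subunit genes together when proteasome activity falls. In the ovary, the proteasome is known for its part in oocyte maturation, where it degrades cell cycle regulators. Interferon induces immunoproteasome subunits, which take the places of the catalytic beta subunits and change the peptides offered on class I molecules.

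The libraries held 23335131 counts (WT) and 23041225 counts (H19KO). H19 had 672 counts in the WT library and 0 in the H19KO library, where a count of 0 allows up to 3 counts, so it was at least 222-fold lower. Ovarian markers were present in both libraries. Of the 8 granulosa cell markers, 7 had an interval below equality and 1 above, and their summed level in counts-per-million units (CPM) was 2456 in the WT and 1928 in the H19KO library. The 12 oocyte markers summed to 456 and 361 CPM, with 8 below, none above and 4 spanning equality. The 9 leukocyte markers summed to 300.2 and 372 CPM, and of the 6 with a mean of at least 1 CPM 4 were above and 1, Csf1r, below. Most of the difference in the sum was in Lyz2, with 141 and 205 CPM, and the other 8 summed to 160 and 167 CPM. The lymphocyte genes Cd3e, Ms4a1 and Nkg7 had at most 16 counts in either library. The 5 theca and interstitial markers summed to 7142 and 6675 CPM, and of the 4 with a mean of at least 1 CPM 3 were below and 1 above. Among them Cyp17a1, the androgen-making enzyme of theca cells, had 11243 and 2834 counts (log2 ratio -1.98, -2.04 to -1.92). In whole ovaries, fewer cells of a type and less RNA per cell cannot be told apart. The part of these marker differences in the values below was not tested.

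The constitutive proteasome genes had nearly the same summed level in both libraries, and no member differed widely. The 47 rows together had 115919 counts in the WT library and 115248 in the H19KO library, or 4985 and 4984 CPM after scaling. The log2 ratio of the sums, H19KO over WT, was -0.00037 (-0.012 to 0.011). Of the 47, 46 had a mean of at least 1 CPM; the exception was Psmb11. The median log2 ratio of these 46 was 0.019, beside -0.012 for all 13928 genes of the table that reached this minimum.

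Small differences were as common in both directions when all rows were counted, including those that overlap another gene or have a copy. Among the 46 members, 11 had an interval wholly above equality and 11 wholly below it, beside 22.2% and 24% of all 13928 genes. Among the 32 core subunits, 9 lay above and 9 below. The share for the 6686 genes in the same abundance range, between 26.7 and 243 mean CPM, was 25.2% above and 29.2% below, so the count among core subunits was close to the background. No member had an interval wholly beyond 1.2-fold in either direction, where 5.18% of all genes lay above that limit and 4.57% below it (4.2% and 4.43% in the abundance range of the core subunits). None lay beyond 2-fold, where the shares of all genes were 0.61% and 0.388%. By contrast, 33 of the 46 members had an interval wholly inside 1.2-fold, beside 37.6% of all genes. For core subunits this was 26 of 32, beside 61.6% of genes in their abundance range. The rule of intervals inside 1.2-fold was added after the ratios had been seen, and it is met more easily by narrow intervals. The median width was 0.181 for members and 0.308 for all genes, and 0.175 for core subunits and 0.213 for genes in their range. The shares therefore depend partly on depth. The log2 ratios of the core subunits had a standard deviation (SD) across genes of 0.12, where genes in the same abundance range had 0.26. The latter SD includes extreme genes, from -4.49 to 3.05. The distance between the quartiles, which such genes hardly affect, differed less, at 0.17 for core subunits and 0.23 for genes in their range.

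**Figure D1:**
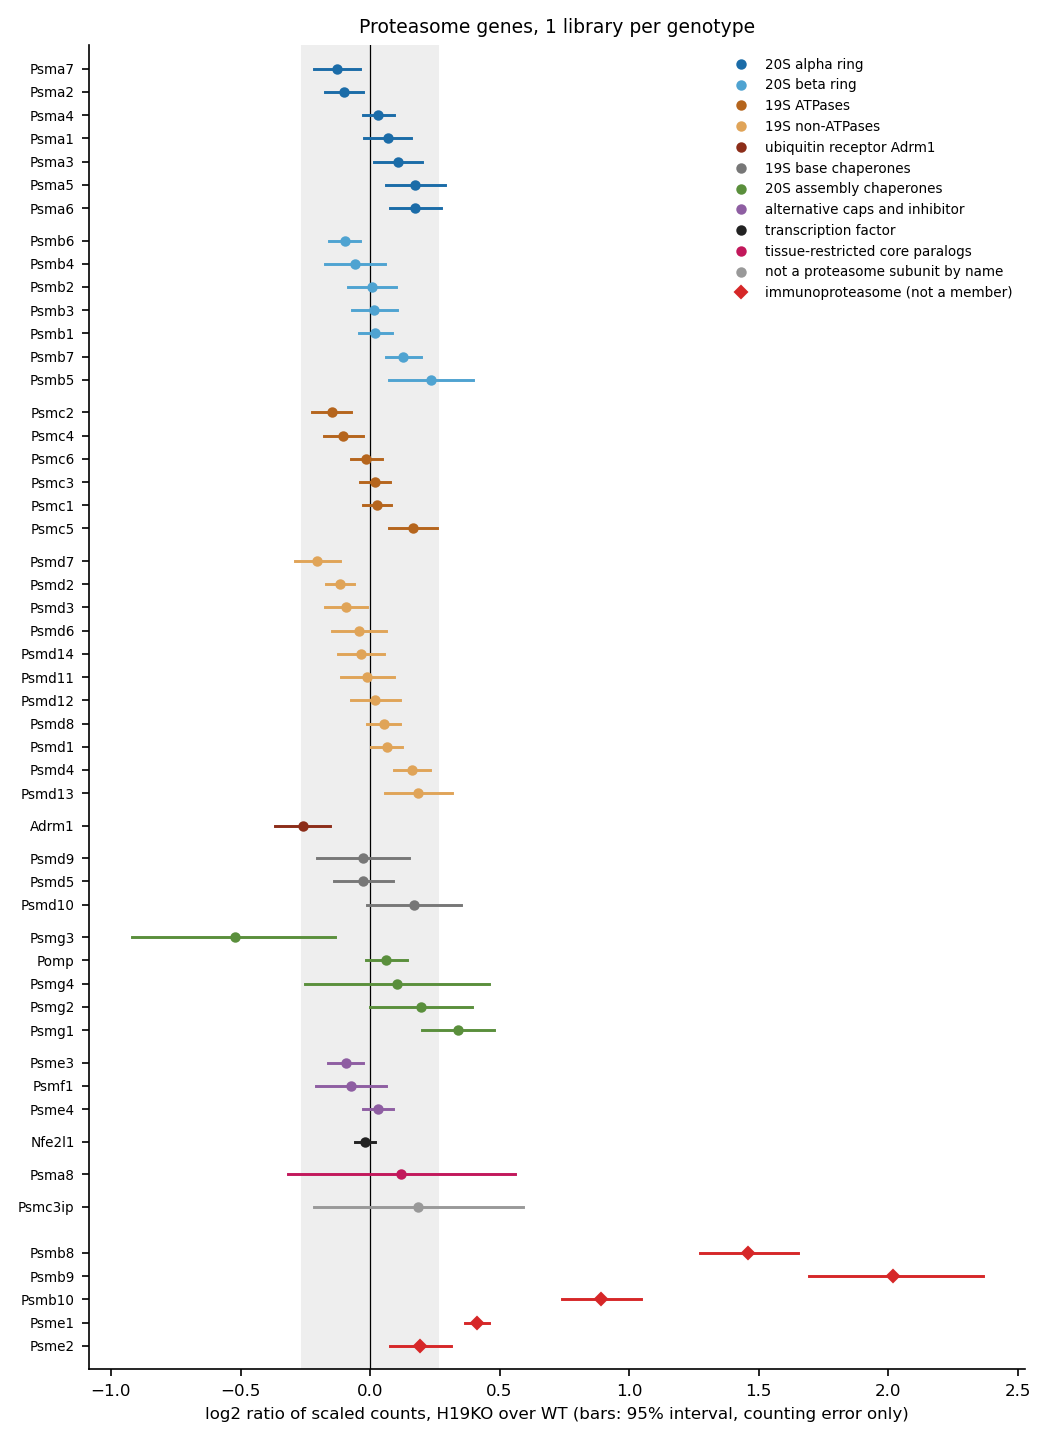
Log2 ratio of scaled counts, H19KO over WT, for the 46 constitutive proteasome genes that reached 1 CPM (circles, coloured by role) and for 5 immunoproteasome genes (red diamonds). Bars are 95% intervals for counting error, and the grey band marks 1.2-fold in either direction; no bar of a circle lies wholly outside the band.

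**Figure D2:**
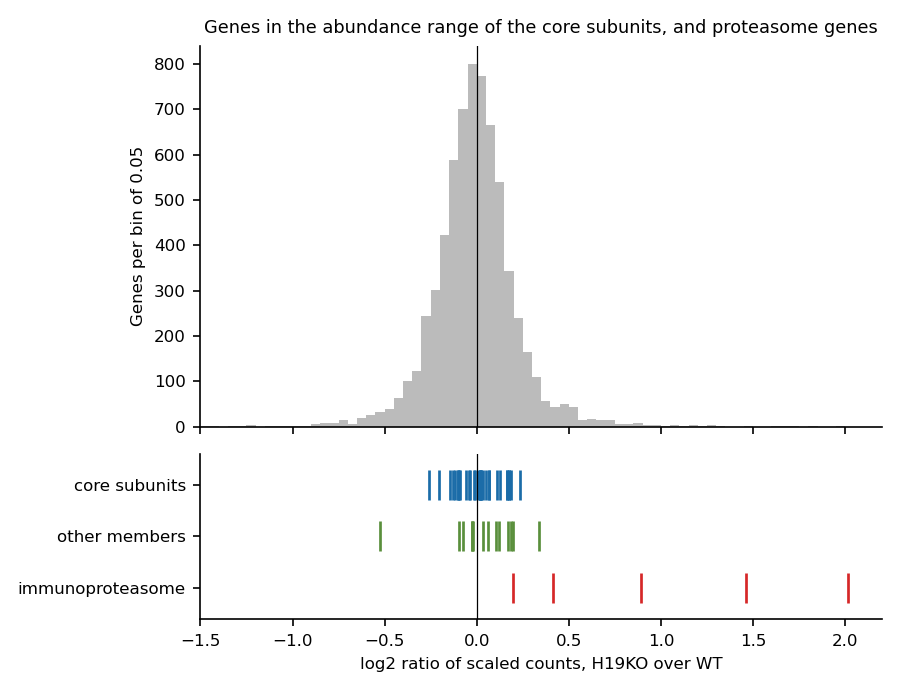
Number of genes per bin of log2 ratio, H19KO over WT, for the 6686 genes in the abundance range of the core subunits (grey; 10 genes lie beyond the axis), above ticks for 32 core subunits, 14 other members and 5 immunoproteasome genes. The core subunits run from -0.26 to 0.23, and the immunoproteasome genes from 0.19 to 2.02.

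The alpha ring forms the gate of the barrel, and its 7 genes, Psma1 to Psma7, had 16300 counts in the WT and 16519 in the H19KO library in sum (log2 ratio 0.027, -0.0040 to 0.059). Of the 7, 3 lay above equality, 2 below and 2 spanned it. Among genes in the abundance range of the core subunits, 25.2% lay above and 29.2% below. Here and below the WT count comes first, then the H19KO count, with the log2 ratio and its interval in parentheses. Psma6 had 1574 and 1766 counts (0.17, 0.08 to 0.27). Psma5 had 1190 and 1335 counts (0.17, 0.06 to 0.29) and Psma3 1889 and 2025 (0.11, 0.02 to 0.20). On the other side, Psma7 had 2108 and 1920 counts (-0.13, -0.22 to -0.04) and Psma2 3117 and 2894 (-0.10, -0.17 to -0.03). Psma1 and Psma4, the most abundant of the ring by counts, had log2 ratios of 0.07 and 0.03 with intervals that held equality. The genes of one ring therefore lay on both sides of equality by small amounts, as did many genes of their abundance range.

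The beta ring carries the catalytic sites, and its 7 genes had 18084 and 18134 counts in sum (0.012, -0.018 to 0.042). Psmb6, the caspase-like subunit, had 4783 counts in the WT and 4444 in the H19KO library, a log2 ratio of -0.10 (-0.16 to -0.04). Psmb7, the trypsin-like subunit, had 3499 and 3804 counts (0.13, 0.06 to 0.20). Psmb5, the chymotrypsin-like subunit and the target of the drug bortezomib, had 570 and 667 counts (0.23, 0.07 to 0.40). The 3 catalytic genes thus stood on both sides of equality, as did many genes of their abundance range. The 4 non-catalytic genes Psmb1, Psmb2, Psmb3 and Psmb4 had log2 ratios between -0.06 and 0.02, all with intervals that held equality. Psmb5 had the lowest count of all core subunits, and its row is uncertain: the processed pseudogene Gm3375 matches 88.5% of its transcript at 98.9% identity, and its own counts were not analysed here.

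The 3 immunoproteasome subunits that take the places of these catalytic genes were all higher in the H19KO library. Their intervals lay wholly above 1.2-fold, beside 5.18% of all 13928 genes. Psmb8 had 310 and 849 counts, Psmb9 94 and 380, and Psmb10 553 and 1021. Per kilobase of merged exons, the ratio of Psmb8 to Psmb5 was 0.145 (0.126 to 0.166) in the WT and 0.338 (0.305 to 0.375) in the H19KO library. The ratio of Psmb9 to Psmb6 was 0.0101 (0.0081 to 0.0123) and 0.0437 (0.0393 to 0.0486). That of Psmb10 to Psmb7 was 0.317 (0.289 to 0.347) and 0.539 (0.502 to 0.577). Relative to the constitutive partner, the immunoproteasome gene was therefore 2.34-fold, 4.35-fold and 1.70-fold higher in the H19KO library. The intervals of the 2 libraries did not overlap, but they cover counting error only, with 1 library per genotype. In both libraries the constitutive gene of each pair had the higher level per length. On the length of the longest transcript, the ratio of Psmb8 to Psmb5 was 0.256 in the WT and 0.600 in the H19KO library, and that of Psmb9 to Psmb6 0.0066 and 0.0286; the fold between libraries does not depend on the length. The Psmb9 row is uncertain, since it shares 212 exon bases with Tap1 on the opposite strand, which had 595 and 1445 counts, more than Psmb9 in both libraries. Psmb8 likewise shares 498 exon bases with the antisense gene Gm20496, whose own counts were not analysed here. The leukocyte markers had a higher sum in the H19KO library, mostly through Lyz2, with 4 of 6 above equality and 1 below, and their part in this was not tested.

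**Figure D3:**
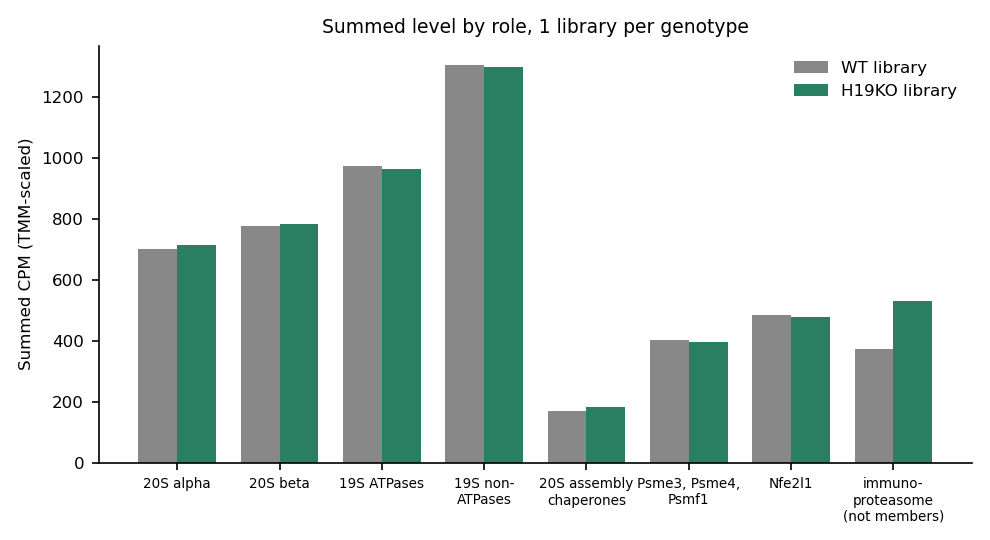
Summed TMM-scaled CPM of the genes of each role in the WT (grey) and H19KO (green) libraries; Adrm1, the 19S base chaperones, Psma8, Psmb11 and Psmc3ip are not drawn. The rings and both 19S classes have bars of nearly equal height, with 701 and 714 CPM for the alpha ring. The immunoproteasome bars, with 374 and 531 CPM, sum Psmb8, Psmb9, Psmb10, Psme1 and Psme2. Most of both bars is the activator gene Psme1, with 284 and 378 CPM.

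The 6 ATPases of the 19S base, Psmc1 to Psmc6, unfold the substrate, and they had 22604 and 22316 counts in sum (-0.010, -0.037 to 0.016). Psmc5 was the highest by ratio, with 1804 counts in the WT and 2010 in the H19KO library (0.16, 0.07 to 0.26). Psmc2 had 3023 and 2715 counts (-0.15, -0.22 to -0.07) and Psmc4 2983 and 2760 (-0.10, -0.18 to -0.03). The remaining ATPase genes, Psmc1, Psmc3 and Psmc6, had log2 ratios between -0.01 and 0.03. All 6 intervals lay inside 1.2-fold, beside 61.6% of genes in the abundance range of the core subunits.

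The 11 non-ATPase subunit genes of the 19S cap had 30308 and 30031 counts in sum (-0.0052, -0.028 to 0.018). Of these, 3 lay above equality, 3 below and 5 spanned it, beside 25.2% above and 29.2% below in the abundance range of the core subunits. The lowest by ratio was Psmd7, which encodes the partner of the deubiquitinase PSMD14, with 2283 and 1972 counts (-0.20, -0.29 to -0.12). Psmd14 itself, whose product removes ubiquitin chains from substrates, had 2085 and 2025 counts (-0.03, -0.12 to 0.05). The highest was Psmd13, a subunit of the lid, with 941 and 1065 counts (0.19, 0.06 to 0.31). Psmd13 shares 342 exon bases with Sirt3 on the opposite strand, which had 354 and 271 counts, and reads of the 2 cannot be told apart without the strand setting. Psmd1, a large scaffold of the base, had 4522 and 4703 counts (0.06, 0.01 to 0.12), an interval that held equality under median-of-ratios scaling. The lid gene Psmd3 had 2552 and 2382 counts (-0.09, -0.17 to -0.01). The other lid genes Psmd6, Psmd8, Psmd11 and Psmd12 had log2 ratios between -0.04 and 0.05.

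The genes of the cap's ubiquitin-binding subunits differed among themselves. Adrm1, which encodes a ubiquitin receptor that also holds the deubiquitinase UCHL5, had 1575 counts in the WT and 1308 in the H19KO library. Its log2 ratio of -0.26 (-0.37 to -0.15) was the lowest of the 32 core subunits. Psmd4, the other long-known receptor, had 3223 and 3586 counts (0.16, 0.09 to 0.23). Psmd2, a scaffold that also binds ubiquitin-like domains, had 5774 and 5297 counts (-0.12, -0.17 to -0.06). The intervals of Adrm1 and Psmd4 did not overlap, which holds for any gene above equality beside any gene below it. Of the 32 core subunits, 9 lay above and 9 below, beside 25.2% and 29.2% of genes in their abundance range. Uchl5, outside the members and named here after its values were seen, had 709 and 544 counts (-0.37, -0.54 to -0.21). The Adrm1 row is uncertain, because Gm9774, whose own counts were not analysed here, matches 88.5% of its transcript at 99.8% identity. Adrm1 lies on mm10 chromosome 2, from 180171485 to 180176286 on the plus strand.

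Chaperones showed the largest ratios in either direction. The 5 genes that assemble the 20S core had 3942 and 4257 counts in sum, a log2 ratio of 0.12 (0.06 to 0.18). Of the 5, 2 lay above equality, 1 below and 2 spanned it, beside 22.2% above and 24% below among all genes. The largest difference in counts among the 5 was in Psmg1, and the sum without it was not computed. The ratio of the sum therefore does not describe a rise of the class as a whole. Psmg1 had 748 counts in the WT and 941 in the H19KO library, a log2 ratio of 0.34 (0.20 to 0.48), the highest of all members. Its product pairs with that of Psmg2, which had 399 and 455 counts (0.20, 0.00036 to 0.40), an interval that likewise held equality under median-of-ratios scaling. Psmg3 had 136 and 94 counts and the lowest ratio of the 46 members at -0.52 (-0.92 to -0.14), an interval wide because of the low count. Its partner Psmg4 had 130 and 139 counts (0.10, -0.25 to 0.46), and the intervals of these 2 overlapped. Psmg3 shares 280 exon bases with Gm26938 on the same strand, so its row is uncertain. Pomp, which encodes the maturation factor of the half-made core and outnumbered the other 4 by counts, had 2529 and 2628 (0.06, -0.02 to 0.14). The 3 chaperone genes of the 19S base, Psmd5, Psmd9 and Psmd10, all had intervals that held equality, with Psmd5 at -0.03. Psmd9 had 526 and 513 counts (-0.03, -0.21 to 0.15), and Psmd10, also known as gankyrin, had 482 and 539 (0.17, -0.01 to 0.35).

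The alternative caps and the inhibitor were close to equal. Psme4, which encodes the activator PA200, had 4664 and 4741 counts (0.03, -0.03 to 0.09). Psme3, which encodes the nuclear activator PA28 gamma, had 3821 and 3559 (-0.09, -0.16 to -0.03). Psmf1, which encodes the proteasome inhibitor PI31, had 908 and 858 (-0.07, -0.21 to 0.06). All 3 intervals lay inside 1.2-fold, beside 37.6% of all genes. By contrast Psme1 and Psme2, which encode the interferon-inducible PA28 alpha and beta and are not members, had 6600 and 8732 counts (0.41, 0.37 to 0.46) and 1138 and 1295 (0.19, 0.08 to 0.31).

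Nfe2l1, the transcription factor gene of the list, had the most counts of any member, 11255 in the WT and 11034 in the H19KO library, which was 9.71% and 9.57% of the counts of all members. Its log2 ratio was -0.02 (-0.06 to 0.02). NFE2L1 is known to be regulated mainly as a protein, which RNA counts do not show. It binds the antioxidant response element, and the promoters of members were therefore searched for the letters TGACNNNGC on both strands. The windows ran from 250 bases before to 50 after each start in the RefSeq promoter table (GRCm38.p6, the assembly of mm10), which held 39 of the 47 members (not Psma8, Psmb1, Psmb2, Psmb7, Psmc3, Psmd3, Psmd7 and Psmg2). The element was found in 7 of the 39 (17.9%), beside 13.99% of the 27025 genes in the table and 16.9% of the 10528 of these that had at least 1 CPM. With A or G required before it, 6 of 39 members held it (15.4%), beside 7.20% of all genes and 8.66% of the 10528 with at least 1 CPM. The 7 matches are shown with up to 10 bases on either side, read along the strand of the motif, because they let the catalytic subunit genes Psmb5 and Psmb6 and the receptor gene Adrm1 be compared by sequence and ratio. Capitals mark the searched motif. The Psmd12 match lies at the edge of its window.
Adrm1, chr2:180171416-180171444, plus strand: cgctcccctaTGACACAGCaacaataggg
Psmb5, chr14:54618024-54618052, minus strand: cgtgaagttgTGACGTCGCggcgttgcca
Psmb6, chr11:70525338-70525366, plus strand: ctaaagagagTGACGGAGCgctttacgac
Psmc6, chr14:45329587-45329615, minus strand: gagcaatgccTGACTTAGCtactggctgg
Psmd9, chr5:123228149-123228177, plus strand: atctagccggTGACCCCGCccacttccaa
Psmd12, chr11:107479278-107479299, minus strand: ggggcaaatgTGACACAGCaga
Psme4, chr11:30771758-30771786, minus strand: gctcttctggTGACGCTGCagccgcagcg

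Members with and without these letters had similar ratios. The 7 with a match had a median log2 ratio of -0.014, from -0.26 for Adrm1 to 0.23 for Psmb5, and the 31 others with at least 1 CPM and a promoter in the table had a median of 0.026. Adrm1 and Psmd12 share the same 9 letters, TGACACAGC, and had log2 ratios of -0.26 and 0.02. The CCAAT box, searched as CCAAT on both strands, was found in 16 of the 39 members (41.0%) and in 41.1% of all genes in the table. A match is a description of these letters and no evidence of binding.

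An interferon-stimulated response element, searched on both strands as GAAA, any 2 bases and GAAA, was found in 4 of the 39 members (10.3%) and in 3.99% of all genes. The 4 are shown beside the match in Psme1, the 1 of 5 immunoproteasome genes with these letters in its window. The log2 ratio of Psme1 was 0.41, and none of the 4 members reached that value. Psmb8, Psmb9, Psmb10 and Psme2 had no match, and their log2 ratios were 1.46, 2.02, 0.89 and 0.19.
Psmb3, chr11:97703261-97703290, minus strand: atggaaagcgGAAAGTGAAAagtcactgtg
Psmd4, chr3:95042675-95042704, plus strand: aggcgccacaGAAATGGAAAggttggttat
Psmd9, chr5:123228021-123228050, plus strand: gggacagaatGAAAAAGAAAggaatgaaca
Psmg4, chr13:34162969-34162998, plus strand: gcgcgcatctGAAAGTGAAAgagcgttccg
Psme1, chr14:55578493-55578522, minus strand: agcgggaaggGAAAGCGAAAgcacagctcg

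The 4 members with these letters had log2 ratios of 0.02 (Psmb3), 0.16 (Psmd4), -0.03 (Psmd9) and 0.10 (Psmg4), and of these only the interval of Psmd4 lay above equality. Psmb3 and Psmg4 hold the same 10 letters. The 34 other members with at least 1 CPM and a promoter in the table had a median of 0.0050.

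Some rows of the list are restricted to other tissues or processes. Psma8, the testis-enriched paralog of the alpha ring that replaces Psma7 during sperm formation, had 86 counts in the WT and 93 in the H19KO library (0.12, -0.32 to 0.56). Its level per length was 1.48 RPKM (CPM per kilobase of merged exons) in the WT library, beside 29.5 for Psma7. Psmb11, the thymus-specific beta subunit, had 2 and 0 counts, both at or under the 3 counts that a count of 0 allows, so no ratio is given. Psmc3ip, the recombination factor gene, had 99 and 112 counts (0.19, -0.22 to 0.59). Its row is uncertain, as it shares 385 exon bases with Mlx on the opposite strand, which had 741 and 738 counts. Mnd1, whose product forms a complex with that of Psmc3ip, had 110 and 107 counts. The 12 genes of a meiosis list summed to 18.4 and 17.99 CPM.

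Per length, the core subunit genes differed by an order of magnitude among themselves, and this pattern was alike in the 2 libraries. Psmc1 was the highest of the 32, with 125 RPKM in the WT and 127 in the H19KO library. Psmb6 followed with 110 and 103 RPKM, and Psma4 and Psmc3 had 82.02 and 79.53 RPKM in the WT library. The lowest were Psmd11 with 10.4 and 10.4 RPKM, Psmd13 with 12.0 and 13.6, and Adrm1 with 15.2 and 12.7. The highest was 11.9 times the lowest in the WT and 12.2 times in the H19KO library. In the order of levels, 14 of the 32 kept the same place and none moved by more than 4 places. The median was 37.9 RPKM in the WT and 37.6 in the H19KO library. Merged exons include long rare transcripts, and on the length of the longest transcript the order differed, with Psmb6 highest at 213 RPKM and Adrm1 lowest at 16.4 in the WT library. RNA levels of subunits of 1 complex were thus unequal on either length, within each library.

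**Figure D4:**
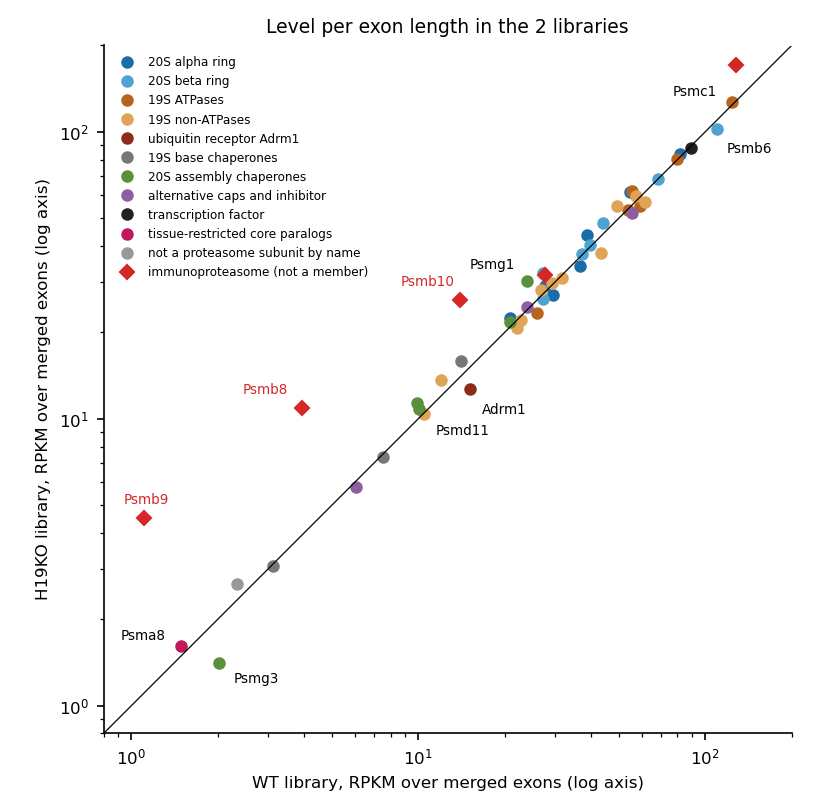
RPKM over merged exons in the H19KO library against the WT library, both on log axes, for the 46 members of at least 1 CPM (circles) and 5 immunoproteasome genes (red diamonds); the line marks equal levels. Core subunits spread along the line from 10.4 (Psmd11) to 125 RPKM (Psmc1), and Psmb8, Psmb9 and Psmb10 lie above it.

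Genes that work with the proteasome were described from a list of 38, of which 37 were analysed and 36 reached 1 CPM. Their median log2 ratio was -0.031, with 4 intervals above equality, 10 below and 22 spanning it, beside 22.2% above and 24% below among all genes. None lay beyond 1.5-fold, where 1.8% of all genes lay above and 1.21% below. The interval of 1, Syvn1, lay wholly beyond 1.2-fold lower, beside 4.57% of all genes, and it was named after its values were seen. Syvn1 encodes the ubiquitin ligase of endoplasmic reticulum quality control, which acts on NFE2L1, and had 1099 and 756 counts (-0.53, -0.67 to -0.40). Ddi2, the protease that activates NFE2L1, had 1149 and 1021 counts (-0.16, -0.29 to -0.04). Ngly1, which removes its sugar chains, had 1071 and 1177 (0.14, 0.02 to 0.26), and Vcp, the segregase that extracts it from the membrane, 8456 and 8942 (0.09, 0.05 to 0.13). The 3 genes of this activation route thus lay on both sides of equality. Nfe2l2, the related stress factor gene, had 5735 and 5681 counts (-0.01, -0.06 to 0.05). The 4 ubiquitin genes had 18948 and 17231 counts in sum (-0.13, -0.16 to -0.10). Shfm1, the 19S subunit outside the naming rule, had 6189 and 6536 counts (0.09, 0.04 to 0.14) and was named after its values were seen.

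Other rows could share reads with neighbours or copies. Of the 47 members, 11 share exon bases with another annotated gene on either strand and 9 have another annotated transcript of at least 95% identity over at least 200 bases, 17 in all. Without these 17, the median log2 ratio of the members with at least 1 CPM was 0.0065. For core subunits the sign of the median turned, from 0.017 to -0.024, both close to 0. Of the core subunits above equality, Psma3, Psma5, Psmb5, Psmb7, Psmd1 and Psmd13 are among the 17. Of those below equality, Adrm1, Psmd2 and Psmd3 are among them. Without these rows, the core subunits above equality were Psma6, Psmc5 and Psmd4. Those below were Psma2, Psma7, Psmb6, Psmc2, Psmc4 and Psmd7. The even split of 9 above and 9 below among core subunits therefore held only with the uncertain rows included.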

How the data were processed

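Per the labels' protocols, ribosomal RNA was depleted from total ovary RNA, and stranded libraries were read from both ends on an Illumina NextSeq. The authors deposited counts, as whole numbers per gene symbol. The submitters' processing notes name STAR 2.5.0a, Cufflinks 2.2.1, DESeq2 1.0.0 and mm10, with no roles. Which counter, annotation and strand setting were used is not given in the sources used here. The median count ratio of the libraries was exactly 1 over genes counted in both, and the median-of-ratios size factors were equal. Earlier scaling of the counts by the authors was therefore not settled. If it was done, the intervals are off by an amount not known here. The labels do not say whether a library is 1 animal.

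The 27 rows with dates for symbols (0.229% of WT and 0.231% of H19KO counts) stayed in the totals. Libraries were scaled by TMM (edgeR 4.0.16), and log2 ratios add 0.5 to scaled counts. Intervals are exact conditional binomial (Clopper-Pearson, 95%). Their calculation was checked on simulated Poisson counts, which hold counting error only, so the check says nothing on variation between animals or libraries. A fixed rule of size was used in place of a test: a mean of at least 1 CPM and an interval wholly beyond a limit. RPKM were computed over merged exons of GENCODE M21, the same build, to which all 47 members matched. Copies were sought with blastn 2.17.0. Alternatives were total count and median-of-ratios scaling (DESeq2 1.42.0), scaling that leaves out the 10 top genes, adding 5 to counts, no minimum or 5 CPM, the mean, members without overlaps or copies, sums without the most abundant member, and longest transcript lengths. All members were accounted for. Named with both counts were catalytic subunits, the extremes of each role, members beyond 1.2-fold, Nfe2l1, low or tissue-restricted rows and the immunoproteasome; others were given by range or as examples. From the partner list, Ddi2, Ngly1, Vcp, Nfe2l2 and genes beyond 1.5-fold (there were none) were to be named; Syvn1, Uchl5 and Shfm1 were added after their values were seen. The members and lists were chosen with earlier results of these data known. 1 gene of the leukocyte list is not reported here and was left out of its sum. Protein sequences were not used here. Computation used Python 3.11.15, scipy 1.17.1 and R 4.3.3.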

Additional observations from a re-analysis of the deposited data

How the results depend on the processing

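Each of the 46 member ratios was recomputed under 3 other scalings and with 5 added to each count. All 184 values stayed within the gene's interval, and those of members with an interval on 1 side of equality kept their direction. The scalings could hardly have given another outcome, as they shift all genes alike and by little. The median of all members was 0.029, 0.011 and 0.022 under them instead of 0.019, and the narrowest interval, that of Nfe2l1, was 0.076 wide. Of the 98 other values, 96 stayed within a tolerance: a factor of 1.5 for counts of members, the interval for sums, 0.091 on the log2 scale for medians and a factor of 1.1 for ranges of levels. The exceptions were the ratio of the highest to the lowest core subunit in the H19KO library, which was 14.5 on the length of the longest transcript instead of 12.2, and the log2 ratio of the summed leukocyte markers, which was 0.069 without Lyz2 instead of 0.31, a sum added after the values had been seen. Of the 24 medians and sums of members, 6 changed sign, all close to 0. The summed log2 ratio of all members lay between -0.0084 and 0.0099, above 0 in 3 of 4 alternatives, and that of the core subunits rose above 0 under 2 scalings (0.0091 and 0.0019). The median of the core subunits was -0.024 without members that overlap another gene or have a copy. Over the scalings and minimums, 9 to 12 members lay above equality and 10 to 11 below: Psmd1 and Psmg2 spanned equality under median-of-ratios scaling, and Psmd8 lay above it under total count scaling. No paired analysis was possible because there was 1 library of either genotype, so no replicate could be left out either. Depth limits Psmg3, Psmg4, Psma8 and Psmc3ip, whose intervals are too wide to show a difference of 1.2-fold.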
